A study of Danio rerio with 33 samples.

Results

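Embryonic and larval globins are the haemoglobin chains that zebrafish carry in their red blood cells during the first days of life. Transcripts of 9 such genes were followed here in 33 pools of whole zebrafish embryos, as 9 of the 25432 protein-coding genes counted. The members are the alpha chain genes hbae1.1, hbae1.3, hbae3 and hbae5 and the beta chain genes hbbe1.1, hbbe1.2, hbbe1.3, hbbe2 and hbbe3, chosen by gene symbol. The table of counts named 8 of them, and hbae1.3 was found through its gene ID. Other globin genes in the table, hbae1.2, hbae4 and the adult genes, are not members and are described beside them.

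Haemoglobin is a tetramer of alpha and beta chains, each holding a heme group whose iron binds oxygen. Zebrafish use one set of globin genes in the embryo and larva and pass to adult genes later. The embryo can live for some days without haemoglobin because oxygen diffuses into its small body. In the RefSeq annotation of assembly GRCz12tu, alpha and beta genes stand side by side in 2 clusters. The cluster on chromosome 3 holds the adult genes together with hbae1.1, hbae1.2, hbae1.3, hbae3, hbbe1.1, hbbe1.2 and hbbe1.3. The cluster on chromosome 12 holds hbae4, hbae5, hbbe2 and hbbe3.

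Exposure of the wild type embryos began 96 h after fertilisation and ended at 120 h, thus lasting 24 h, and each library was made from the poly-A RNA of 1 pool of 10 embryos. The exposures were organic extracts of filters that had collected airborne particles at Barcelona sites in the cold season, namely harbour (filters 32, 36 and 38), traffic road (filters 26, 28 and 30) and airport (filters 44 and 48). Airport filter 54 came from Barcelona in the warm season, and filter 80 from the subway of Valencia. Controls were embryos in vehicle alone and embryos in the extract of a mock filter. The extracts had been made with dichloromethane and methanol and were kept in methanol; no dose is stated in the labels. The library numbers start with 35, 37 or 38, called library series here, and all comparisons below were made within a series except where stated. Series 35 held 3 vehicle, 3 mock filter and 3 airport pools, and 3 pools each of harbour and road, 1 per filter. Series 37 held 3 vehicle pools, 3 each of road filters 26 and 28 and harbour filter 38, and 2 of harbour filter 36. Series 38 held 3 subway pools and 1 pool of harbour filter 36, with no control. Pools of 1 filter repeat the exposure to that extract and not the sampling of the air.

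Library totals lay between 18448718 and 51854033 counts. Uniquely mapped reads made up 71.66 to 77.08% in series 35 and 78.74 to 79.5% in series 37 and 38. The red blood cell markers alas2, slc4a1a, epb41b, sptb, gata1a, klf1, cahz, hemgn and rhag were counted in every group, so the material held red blood cells. Vehicle 3, mock filter 2 and mock filter 3 stood apart by the interferon-induced gene mxc, at 58.6 to 81.3 CPM against at most 8.17 in the other 30 libraries, and the calls of single members were also computed without them.

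Among the alpha chain genes, hbae3 was counted at a median of 2771 reads per library, hbae1.3 at 1362, hbae1.1 at 649 and hbae5 at 12. Among the beta chain genes the median count was 3993 for hbbe1.1, 1595 for hbbe1.3, 1356 for hbbe1.2, 1055 for hbbe2 and 0 for hbbe3. These counts are not per transcript length, so they rank depth and not expression between genes. The 8 genes other than hbbe3 had enough counts to be tested. For hbbe3 only 23 reads were counted over all 33 libraries, with 0 in 19 of them and at most 4 in any, so that no difference in it was detectable at this depth. The adult genes were as low: hbaa1 had 22 reads in all, hbaa2 16 and hbba2 28, and the 2 gene IDs of hbba1 had 3 and 6. A count of 0 allows up to 0.171 CPM (counts scaled to a common library size) in the shallowest library and 0.0599 in the deepest, counting error only.

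Together the 9 genes took 0.027 to 0.128% of the counts of a library in series 35, 0.0368 to 0.0575% in series 37 and 0.0399 to 0.0527% in series 38. Because the copies of a chain are near-identical and the counting program is unstated, the split of reads between copies is uncertain, and the summed CPM of the alpha genes, of the beta genes and of all 9 are given beside the single genes. CPM were scaled by TMM. The highest mean of the summed globins was that of the harbour pools of series 35, at 1086 ± 249 CPM (SD, n = 3). Road in series 35 followed with 544 ± 70.2 (n = 3), then road filter 26 in series 37 with 517 ± 37.1 (n = 3) and vehicle in series 35 with 511 ± 124 (n = 3). Harbour filter 36 in series 37 reached 509 ± 23.1 (n = 2), road filter 28 in series 37 502 ± 31.9 (n = 3) and harbour filter 38 in series 37 488 ± 57.4 (n = 3). Mock filter stood at 462 ± 48.7, subway at 456 ± 52.1, vehicle in series 37 at 393 ± 42.7 and airport at 354 ± 123 (n = 3 each). The single series 38 pool of harbour filter 36 had 390 CPM. Below the harbour pools of series 35, each neighbouring pair in this order differed by less than the SD of its groups wherever both had one, except subway and vehicle of series 37.

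**Figure D1:**
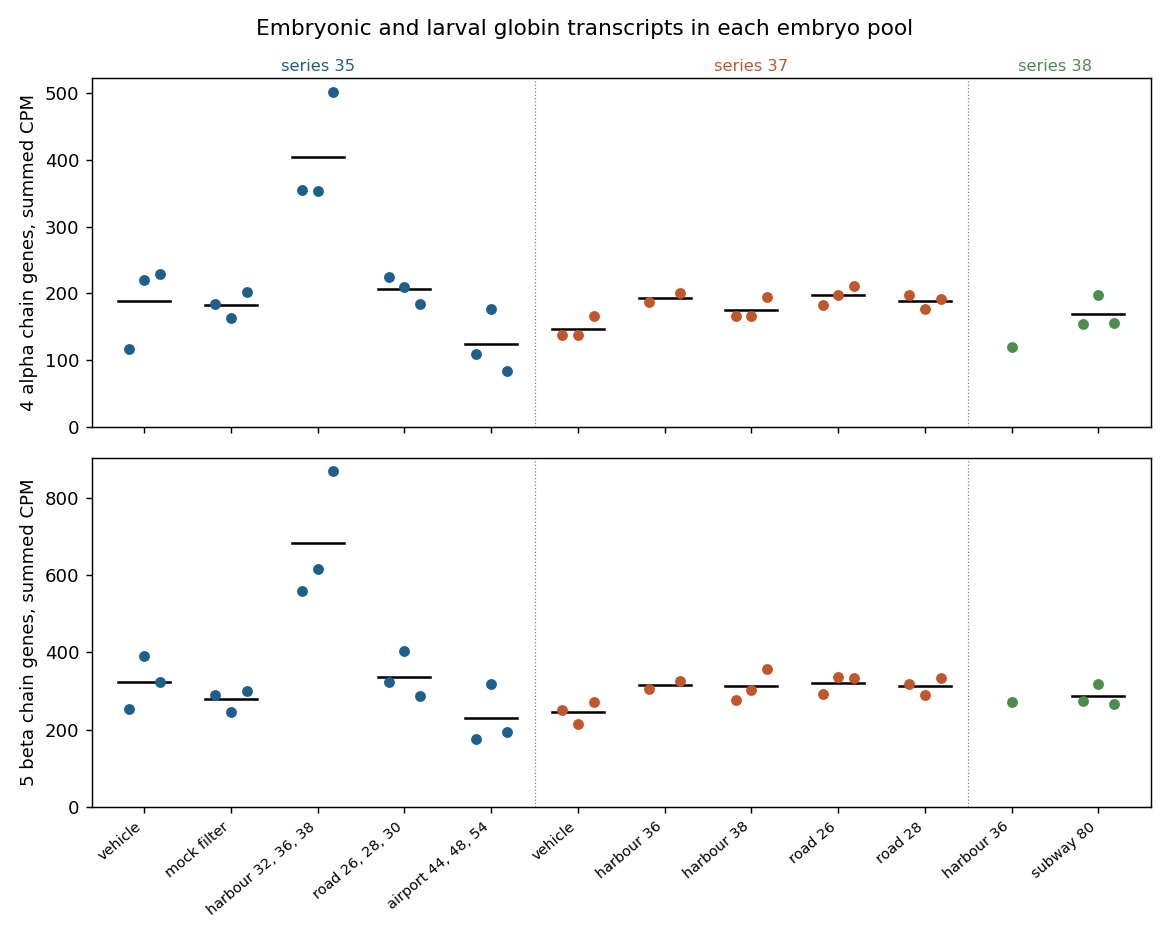
Summed CPM of the 4 alpha chain genes (upper panel) and the 5 beta chain genes (lower panel) in each of the 33 embryo pools, 1 point per pool, with the group mean as a black line where a group has more than 1 pool; colours and dotted lines separate the library series. The 3 harbour pools of series 35 lie at 354 to 501 CPM (alpha) and 560 to 870 CPM (beta), above every other pool.

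Harbour extracts in series 35 were compared with vehicle first. Summed globin CPM were about 2 times as high in harbour extracts as in vehicle, since the alpha genes were 2.2-fold and the beta genes 2.11-fold higher. CPM give a scaled share of a library and not an amount of RNA per embryo. Of the 8 genes tested, 5 rose (hbae1.1, hbae1.3, hbae3, hbbe1.1 and hbbe2) and none fell. Across all 22653 genes tested, 4.87% passed in either direction and 2.6% rose. In bulk RNA of whole embryos, a change in the number of red blood cells and a change in globin RNA per cell cannot be told apart, here and in every comparison below.

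The alpha chain sum was 117, 219 and 230 CPM in vehicle 1, 2 and 3 and 355, 354 and 501 CPM in the pools of harbour filters 32, 36 and 38, a log2 difference of 1.14 ± 0.36 (SE). The major alpha chain gene by count, hbae3, read 74.7, 146 and 131 CPM in vehicle and 198, 203 and 288 CPM in harbour. Every harbour pool was above every vehicle pool, and filter 38 was the highest. The change in hbae3 was 0.97 ± 0.21 on the log2 scale (adjusted p = 0.0095). For hbae1.1 the vehicle pools read 20.8, 24 and 23.8 CPM and the harbour pools 45, 44.7 and 57.1 CPM, with a wide gap between the groups and a log2 change of 1.1 ± 0.20 (adjusted p = 0.00252). For hbae1.3 vehicle ran from 21.1 to 74 CPM and harbour from 105 to 155 CPM, so the groups did not overlap although vehicle varied widely. Its log2 change was 1.36 ± 0.27 (adjusted p = 0.00529). The rarely counted hbae5 read 0.286, 0.412 and 0.864 CPM in vehicle and 0.505, 1.25 and 0.992 CPM in harbour, with overlap and no call (log2 change 0.79, 95% interval -0.33 to 1.91).

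The beta chain sum was 254, 390 and 323 CPM in vehicle 1, 2 and 3 and 560, 617 and 870 CPM in harbour filters 32, 36 and 38, a log2 difference of 1.08 ± 0.26 (SE). The beta gene with the most counts, hbbe1.1, read 98.5, 194 and 134 CPM in vehicle and 302, 353 and 480 CPM in harbour. All harbour pools lay above all vehicle pools, and the log2 change was 1.41 ± 0.27 (adjusted p = 0.00412). The chromosome 12 gene hbbe2 read 42.7, 48.7 and 39.8 CPM in vehicle against 77, 79 and 114 CPM in harbour, a log2 change of 1.04 ± 0.18 (adjusted p = 0.00183). Vehicle pools were close to each other in hbbe2, and no harbour pool came near them. The other hbbe1 copies differed from hbbe1.1. For hbbe1.3 the harbour pools (114, 128 and 188 CPM) were above vehicle (47.2, 99.4 and 77.6 CPM), with a log2 change of 0.94 ± 0.30 that missed the threshold (adjusted p = 0.0693). For hbbe1.2 the groups overlapped, with 67.5, 57.5 and 88.1 CPM in harbour against 65.9, 48.2 and 72.2 CPM in vehicle (log2 change 0.20, 95% interval -0.33 to 0.72). In all, 6 of the 8 genes had every harbour pool above every vehicle pool, against 8.31% of all genes tested, and the members' median log2 change was 1.00 against 0 for all genes.

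The harbour calls were not kept in every fit. With series 35 fitted alone, none of the 8 genes passed against vehicle, with log2 changes that stayed between 0.97 and 1.41 for the 5 genes and adjusted p-values from 0.0501 (hbae1.1) to 0.146 (hbae3). With 1 harbour effect over all series, 2 passed (hbae3 at 0.63 and hbbe1.1 at 0.88, adjusted p = 0.0454 for each).

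Against the mock filter, the same 5 genes rose in harbour, where 3.78% of all genes passed in either direction and 1.87% rose. The mock filter pools summed to 473, 408 and 504 CPM for the 9 genes and harbour to 915, 971 and 1371 CPM, so no pools overlapped. The largest change was that of hbbe1.1, with 85.7, 105 and 118 CPM in mock filter pools and a log2 change of 1.88 ± 0.27 (adjusted p = 0.000454). For hbbe2, with 32.1, 37.8 and 37.2 CPM in the mock filter pools, the log2 change was 1.33 ± 0.18 (adjusted p = 0.000124). Only 1 gene, hbbe2, passed with series 35 fitted alone, and 3 of 8 passed without vehicle 3, mock filter 2 and mock filter 3, which leaves 1 mock filter pool. The mock filter itself did not differ from vehicle in any of the 8 genes by this test (0 called, 0 at an unadjusted p under 0.05, 0 called by DESeq2). Over all genes, 0.0132% passed in that comparison. Every mock filter pool was below every vehicle pool in 1 member, hbbe2, with a log2 difference of -0.29 (95% interval -0.66 to 0.07). Such a gap downwards was shown by 6% of all genes. The 95% interval of the log2 difference between mock filter and vehicle was -0.30 to 0.51 for hbae1.1, -0.61 to 0.27 for hbae3 and -1.01 to 0.08 for hbbe1.1. Harbour was tested against vehicle and mock filter with the same 3 harbour pools, so these are not independent comparisons.

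**Figure D2:**
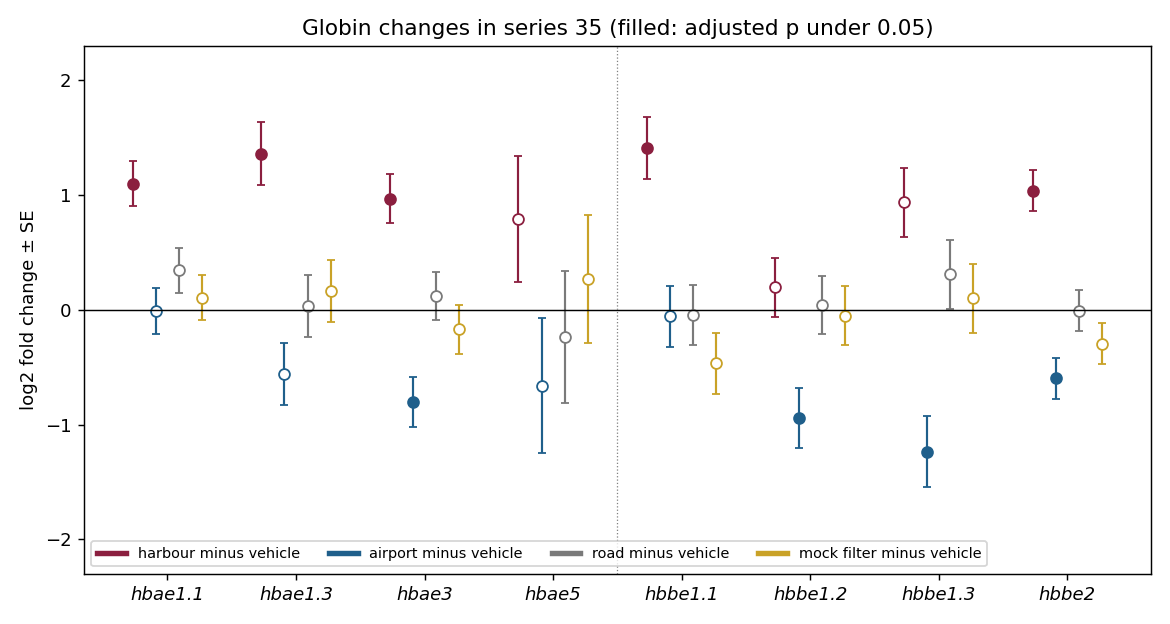
Log2 fold change against vehicle with its SE for each of the 8 tested globins in harbour, airport, road and mock filter pools of series 35 (n = 3 pools per group, edgeR quasi-likelihood test), alpha chain genes left of the dotted line and beta chain genes right of it; filled points passed an adjusted p of 0.05. Harbour passed in 5 genes, all higher, and airport in 4, all lower, while road and mock filter passed in none.

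Airport extracts went the other way in part of the family. Against vehicle in series 35, 4 of the 8 genes fell (hbae3, hbbe1.2, hbbe1.3 and hbbe2) and none rose, where 30% of all genes passed and 13.8% fell. The 9 genes summed to 286, 496 and 279 CPM in the pools of filters 44, 48 and 54, against 371 to 609 CPM in vehicle. Filter 48 lay within the vehicle range and the other two pools below it. The strongest fall was that of hbbe1.3, at 26.91, 40.89 and 27.89 CPM, below every vehicle pool, with a log2 change of -1.24 ± 0.31 (adjusted p = 0.00319). For hbbe1.2 the pools read 23.2, 33.9 and 39 CPM, again below every vehicle pool, with a log2 change of -0.94 ± 0.26 (adjusted p = 0.00671). Both calls held in every alternative run for this comparison, none of which changed the split of reads between near-identical copies. Summed over its copies, hbbe1 read 155 to 278 CPM in airport against 212 to 341 CPM in vehicle, with overlap. The log2 difference between airport and vehicle was -0.61 ± 0.44 (SE) for the alpha sum and -0.52 ± 0.32 (SE) for the beta sum.

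The alpha gene hbae3 fell by 0.80 on the log2 scale (SE 0.22, adjusted p = 0.00564), at 60.3, 100 and 42.2 CPM in filters 44, 48 and 54. Here filter 48 overlapped with vehicle. Likewise hbbe2 read 20.8, 40.5 and 25.8 CPM, a log2 change of -0.60 ± 0.18 (adjusted p = 0.0121), with filter 48 among the vehicle pools. The members hbbe1.1 and hbae1.1 did not pass: hbbe1.1 read 105, 203 and 102 CPM (log2 change -0.06, 95% interval -0.60 to 0.49) and hbae1.1 19.6, 31.9 and 17.2 CPM (log2 change -0.01, 95% interval -0.42 to 0.40). For hbae1.3 the log2 change of -0.56 missed the threshold (adjusted p = 0.127). The call of hbbe2 was lost without vehicle 2 (adjusted p = 0.0621), without filter 44 (0.0846), without filter 54 (0.057) and with series 35 fitted alone (0.051). Leaving out vehicle 2 reduced the count of called genes from 4 to 2, and the fit of series 35 alone reduced it to 3. Only 2 of 8 genes had every airport pool below every vehicle pool, where 14.7% of all genes did, and the members' median log2 change was -0.63 against -0.0041 for all genes. Of 76 cytosolic ribosomal protein genes, 49 fell in airport as well, with a median of -0.37. Medians were -0.24 for 12 small nuclear RNP and LSm genes and -0.02 for 57 genes of complex I and ATP synthase.

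Against the mock filter, airport again had 4 lower genes (hbae1.3, hbae3, hbbe1.2 and hbbe1.3), where 26.6% of all genes passed and 11.8% fell. The log2 change was -1.34 ± 0.31 in hbbe1.3 (adjusted p = 0.00199) and -0.89 ± 0.26 in hbbe1.2 (adjusted p = 0.0113). The chain sums differed by -0.63 ± 0.32 (alpha) and -0.32 ± 0.28 (beta) on the log2 scale (SE). In this comparison hbae1.3 passed just under the threshold, at a log2 change of -0.72 ± 0.27. The count fell to 1 without airport filter 44, and to 2 without airport filter 54, without mock filter 3, with series 35 fitted alone, or without vehicle 3, mock filter 2 and mock filter 3 together. The pool of filter 54 was also the deepest library, with 51854033 counts, and had the smallest mean insert size of series 35, at 197 bases, and the part of either in these values was not tested.

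Road extracts in series 35 did not change the globins detectably. The 9 genes summed to 547, 612 and 472 CPM in filters 26, 28 and 30, within or just above the vehicle range. Of 8 genes, none passed against vehicle (0 at an unadjusted p under 0.05, 0 called by DESeq2), where 0.11% of all genes passed. The 95% interval of the log2 difference was -0.32 to 0.56 for hbae3, -0.59 to 0.50 for hbbe1.1 and -0.37 to 0.35 for hbbe2. Every road pool was above every vehicle pool only in hbae1.1, at 31.4, 28.5 and 27.4 CPM against 20.8 to 24, with a log2 difference of 0.35 ± 0.20 (adjusted p = 0.556), where 5.7% of all genes showed such a gap upwards. Against the mock filter, none of the 8 passed either (0 at an unadjusted p under 0.05, 0 called by DESeq2), where 1.45% of all genes did.

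Fresh pools of filters 26, 28, 36 and 38 were run in series 37 beside their own vehicle pools. Globin sums there were 1.24 to 1.32 times those of vehicle for all 4 filters, a much smaller gap than that of harbour in series 35. In the fit over all series none of the 8 genes passed for any of the 4 filters. At an unadjusted p under 0.05 there was 1 gene for road filter 26, 2 for road filter 28 and 0 for harbour filters 36 and 38, and DESeq2 called 0 in each. The share of all genes that passed was 23% for road filter 26, 20% for harbour filter 38, 0.0486% for road filter 28 and 0.0265% for harbour filter 36. All of these comparisons share the same 3 vehicle pools, so that similar shifts among them are not independent.

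For road filter 26 the summed globins were 475, 534 and 544 CPM against 387, 353 and 438 CPM in vehicle, with no overlap and a log2 difference of 0.40 ± 0.11 (SE). Here 5 of 8 genes had every pool above vehicle, where 23.5% of all genes did. The 3 pools read 23.2, 29.3 and 36.6 CPM in hbae1.1 against 20.3 to 22.9 in vehicle, with a log2 difference of 0.48 ± 0.19 (adjusted p = 0.0751). With series 37 fitted alone, 4 genes passed upwards for this filter: hbae1.1 (0.47, adjusted p = 0.0272), hbae1.3 (0.41, adjusted p = 0.00446), hbae3 (0.40, adjusted p = 0.00204) and hbbe1.1 (0.49, adjusted p = 0.00419). So the sizes were close in both fits and the calls were not. The share of all genes that passed with series 37 fitted alone was not determined. The calls of that fit, here and below, therefore cannot be set against a background. For road filter 28 the sum was 516, 466 and 525 CPM, a log2 difference of 0.36 ± 0.10 (SE). With this filter 4 of 8 genes had every pool above vehicle, where 6.78% of all genes did. There hbbe1.2 had the largest log2 difference, 0.68 ± 0.26, with 53.4, 40.4 and 79.2 CPM against 28.5 to 40.3 CPM in vehicle (adjusted p = 1). In the fit of series 37 alone hbae1.3 passed for filter 28 (0.51, adjusted p = 0.0496). Filters 26 and 28 were also compared directly, with 0 of 8 genes called (0 at an unadjusted p under 0.05, 0 by DESeq2), where 17.1% of all genes passed. Their sums differed by 0.04 ± 0.08 (SE) on the log2 scale.

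Harbour filter 38 gave sums of 443, 470 and 553 CPM in series 37, all above the 3 vehicle pools, and a log2 difference of 0.31 ± 0.13 (SE). Within it, hbae3 read 106, 101 and 120 CPM against 81, 77.6 and 98 in vehicle, and hbbe1.1 168, 189 and 173 CPM against 122, 119 and 131. These were the members with every pool above vehicle besides the sparse hbbe3, where 21.6% of all genes were. Fitted within series 37 alone, both passed upwards (hbae3 0.34, adjusted p = 0.00625; hbbe1.1 0.51, adjusted p = 0.00404). Harbour filter 36 gave 493 and 526 CPM, a log2 difference of 0.38 ± 0.10 (SE), and its pool in series 38 gave 390 CPM without a vehicle pool of that series. Both pools of filter 36 in series 37 were above every vehicle pool in 3 of 8 genes, where 10.9% of all genes were. Filters 38 and 36 compared directly in series 37 had 0 of 8 genes called (0 at an unadjusted p under 0.05, 0 by DESeq2), where 8.9% of all genes passed. The interval of that difference was -0.53 to 0.44 for hbae3 and -0.44 to 0.78 for hbbe1.1. With series 37 fitted alone hbae1.3 was lower in filter 38 than in filter 36, with a log2 difference of -0.45 (adjusted p = 0.00907).

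The same harbour filters gave lower globin counts in the later series. The pool of filter 36 read 971 CPM in series 35 and 493, 526 and 390 CPM in the later series, and that of filter 38 read 1371 CPM against 443, 470 and 553 CPM. Vehicle moved much less, from 371 to 609 CPM in series 35 to 353 to 438 CPM in series 37. The difference of the harbour effect between series 35 and 37 was tested directly, and 2 of 8 genes passed, both with the larger effect in series 35. They were hbae1.1, by 0.96 ± 0.26 on the log2 scale (adjusted p = 0.0435), and hbbe2, by 0.85 ± 0.24 (adjusted p = 0.0459), where 2.8% of all genes passed and 1.71% in this direction. The chain sums differed by 0.81 ± 0.37 (alpha) and 0.72 ± 0.29 (beta) in the same sense. For hbae1.3 and hbbe1.1 the difference was of like size (1.06 ± 0.36 and 0.98 ± 0.36) without passing. The calls for hbae1.1 and hbbe2 depended on single pools: 0 of 8 passed without vehicle 1, 4, 5 or 6, without any 1 of the pools 1, 2 and 3 of filter 36, or without pool 1 or 2 of filter 38. The count was 1 without vehicle 2 and without pool 3 or 4 of filter 38. Without vehicle 3 it was again 2, but hbbe2 no longer passed (adjusted p = 0.0732) and hbae1.3 did, at a log2 difference of 1.52 (adjusted p = 0.0133). The same exchange was seen without vehicle 3, mock filter 2 and mock filter 3 together (adjusted p = 0.0809 for hbbe2 and 0.0134 for hbae1.3). The series 35 side includes filter 32 and the series 37 side does not, and the labels do not state whether both had the same dose. The same test on the road effect found 0 of 8 genes (0 at an unadjusted p under 0.05, 0 by DESeq2) and 0% of all genes.

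**Figure D3:**
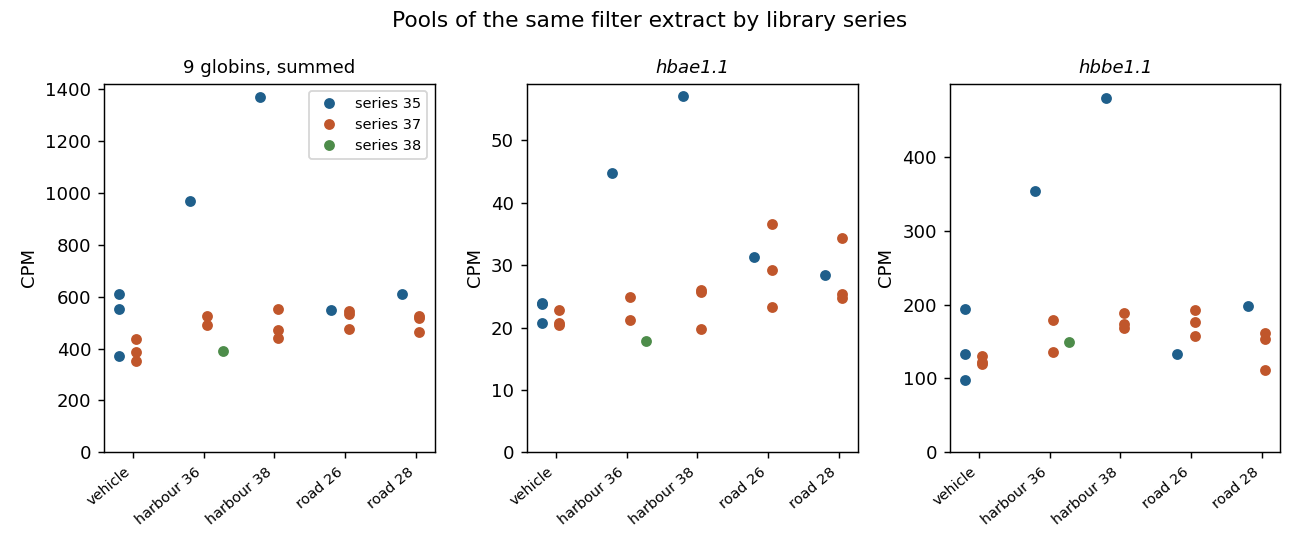
CPM of the summed 9 globins, hbae1.1 and hbbe1.1 in pools of vehicle and of the 4 filters run in more than 1 library series, 1 point per pool, coloured by series. The series 35 pools of harbour filters 36 and 38 sum to 971 and 1371 CPM and their later pools to 390 to 553 CPM, while the road pools of both series lie between 466 and 612 CPM.

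Vehicle pools of the 2 series were compared with each other to show the size of a series shift with no extract. All 8 genes were lower in series 37, with a median log2 change of -0.37 against -0.01 over all genes. By edgeR 0 passed (2 at an unadjusted p under 0.05), where 7.2% of all genes did. The shift was not particular to globins. Of 76 cytosolic ribosomal protein genes 1 was higher, with a median of -0.35 for the group. Medians were -0.18 for 12 small nuclear RNP and LSm genes and -0.17 for 57 genes of complex I and ATP synthase. The largest change of a globin was that of hbbe1.2, at 40.32, 28.53 and 38.92 CPM in series 37 against 65.9, 48.2 and 72.2 CPM in series 35, with no overlap. Its log2 change was -0.79 ± 0.26 (adjusted p = 0.0597), and DESeq2 called it (adjusted p = 0.0456), as the only member. Leaving out vehicle 1 gave 1 called gene.

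Subway extract (series 38) had vehicle only in series 37 to stand against, so site and series cannot be told apart. The 3 pools summed to 429, 516 and 422 CPM, against 353 to 438 CPM in vehicle. All 8 log2 differences were positive, from 0.09 (hbbe2) to 0.44 (hbbe1.2), and 0 passed (0 at an unadjusted p under 0.05, 0 by DESeq2), where 4.39% of all genes passed. The interval of hbbe2 was -0.27 to 0.45 and that of hbae3 -0.23 to 0.64.

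Alpha and beta sums mostly moved together, while the copies of hbbe1 did not. The ratio of the alpha sum to the beta sum was 0.593 ± 0.0643 (SD) over the 33 pools. It was 0.573 to 0.634 in the harbour pools of series 35 and 0.46 to 0.71 in vehicle of that series. Its level depends on the member list, which leaves out the alpha gene hbae1.2. With hbae1.2 added, the ratio was 0.83 ± 0.081 (SD) over the 33 pools. So the higher totals of harbour came with a ratio inside the wide vehicle range but below every mock filter pool (0.641 to 0.672). With hbae1.2 added, harbour read 0.776 to 0.847, inside the 0.647 to 0.947 of vehicle and below the 0.897 to 0.921 of mock filter. The chromosome 12 genes made up 8.27 to 8.47% of globin CPM in those harbour pools, inside the 7.36 to 11.6% of vehicle. Among the 3 hbbe1 copies, hbbe1.1 held between 32.1% (road filter 30) and 73.1% (airport filter 48). In series 35 that share was 46.5 to 56.8% in vehicle, 33.4 to 50.4% in mock filter, 62.4 to 65.6% in harbour and 60.4 to 73.1% in airport. Harbour and airport pools thus both lay above all control pools of series 35 in this share, although their mean totals lay on opposite sides of vehicle. In airport the log2 difference of the total from vehicle was -0.55 ± 0.35 (SE), and filter 48 lay within the vehicle range. Vehicle pools of series 37 read 56.6 to 65.1%, so the share in controls also moved with the series. Pools of a single filter in 1 series spread as far: road filter 28 read 55.84, 64.14 and 38.72%.

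**Figure D4:**
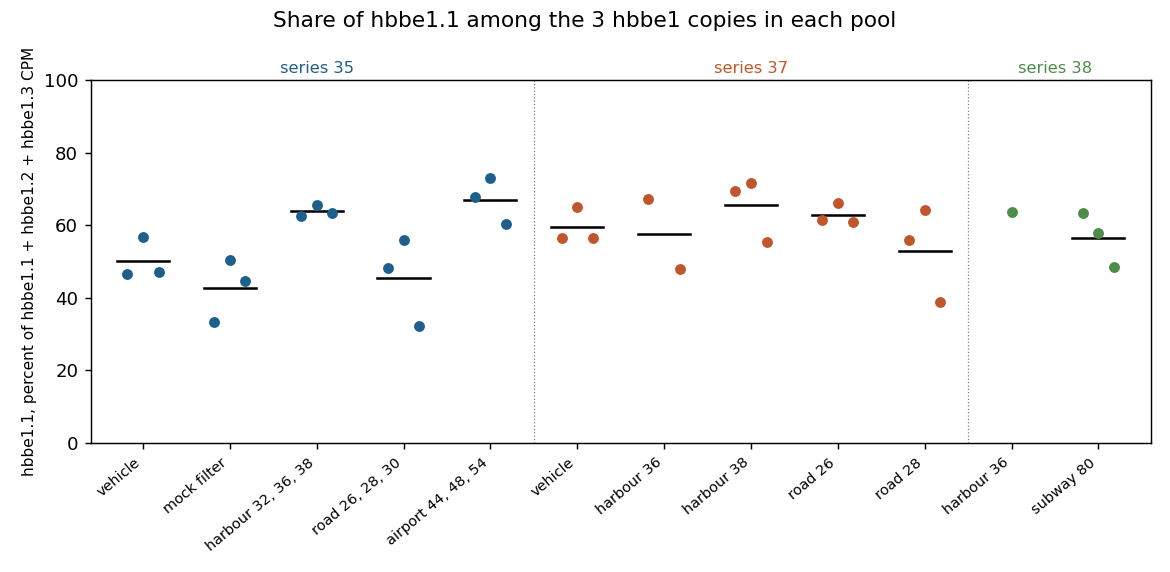
Share of hbbe1.1 in the summed CPM of hbbe1.1, hbbe1.2 and hbbe1.3, in percent, for each of the 33 pools by group and library series, with the group mean as a black line. The share runs from 32.1 to 73.1%, with harbour (62.4 to 65.6%) and airport (60.4 to 73.1%) above vehicle and mock filter in series 35.

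Over the 33 pools, with the mean of each series taken out of log2 CPM, pairs of members correlated from 0.1 to 0.87 (Pearson's r, as a description: the pools share library depth and group). The closest pair was hbae3 and hbbe2, which lie in different clusters, at 0.87. By contrast hbbe1.1 and hbbe1.2, copies in the same cluster, had 0.1, and hbbe1.2 and hbbe1.3 0.777. Since the split of reads between near-identical copies is uncertain, these values describe the counted genes and may not describe the genes themselves.

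Red cell globins outside the member list were also higher in harbour. Their list of 8 had 7 rows in the table and 2 that could be tested, hbae1.2 and hbae4. Both rose in harbour pools of series 35, where 2.6% of all genes rose. The alpha gene hbae1.2 read 47.6, 84.7 and 76.7 CPM in vehicle and 120, 134 and 174 CPM in harbour, a log2 change of 1.03 ± 0.22 (adjusted p = 0.00731). The chromosome 12 alpha gene hbae4 read 0.514, 0.458 and 0.356 CPM in vehicle and 1.47, 1.25 and 1.93 CPM in harbour, a log2 change of 1.80 ± 0.36 (adjusted p = 0.00519). In airport neither passed, with log2 changes of -0.46 ± 0.22 for hbae1.2 (adjusted p = 0.112) and 0.32 ± 0.38 for hbae4 (adjusted p = 0.562). Neither passed in the test of the harbour effect between series 35 and 37. Of the globins outside red cells, 5 were tested (among them the heart and muscle protein mb, myoglobin, and the cytoglobins). None passed in harbour, where 4.87% of all genes did. In airport mb (-0.88 ± 0.20, adjusted p = 0.00125) and cygb1 (-0.35 ± 0.13, adjusted p = 0.0385) fell, where 30% of all genes passed and 13.8% fell.

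Of 18 tested genes of heme synthesis and iron delivery, 2 rose and 1 fell in harbour against vehicle in series 35, with a median log2 change of 0.15, where 4.87% of all genes passed. The 2 that rose were hmbsb (0.76 ± 0.17, adjusted p = 0.00913) and cpox (1.02 ± 0.22, adjusted p = 0.00834), both enzymes of the heme pathway. The one that fell was alas1 (-0.97 ± 0.25, adjusted p = 0.0235), the first enzyme of that pathway outside red cells. In airport, 5 of the 18 fell and 1 rose, with a median of -0.18. Over all genes 30% passed there and 13.8% fell. The number that passed in either direction was near that background. The share of the 18 that fell was above 13.8%, and this excess was not tested. Among them slc25a39, a mitochondrial carrier, fell by 0.61 on the log2 scale (adjusted p = 2.3e-05), tfr1b, a transferrin receptor, by 0.63 (adjusted p = 0.014), and slc25a38a, a mitochondrial glycine carrier, rose by 1.38 (adjusted p = 0.0117). The first heme enzyme of red cells, alas2, fell by 0.58 (adjusted p = 0.0264) with 11.07, 13.9 and 10.45 CPM against 12.6, 24.8 and 15.2 in vehicle.

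Of 24 tested genes for the red cell membrane, its enzymes and its transcription factors, the median log2 change in harbour was 0.09. Beside 2.6% of all genes that rose there, 4 of the 24 rose and none fell. They were slc4a1a, the anion exchanger of the red cell membrane (1.23 ± 0.21, adjusted p = 0.00167), klf1 (0.86 ± 0.21, adjusted p = 0.0161) and gata1a (1.32 ± 0.35, adjusted p = 0.0299), both transcription factors of red cells, and the carbonic anhydrase cahz (0.57 ± 0.15, adjusted p = 0.0288). For slc4a1a the harbour pools read 43.8, 67.1 and 65.4 CPM and vehicle 16.1, 32.4 and 26.2 CPM, with no overlap. In airport 7 of the 24 fell and 2 rose, with a median of -0.16, again beside 30% of all genes passed and 13.8% lower. The antioxidant enzyme prdx2 fell by 0.76 (adjusted p = 0.000141), ank1a, the membrane anchor ankyrin, by 0.52 for one of its 2 gene IDs (adjusted p = 0.000179), and the spectrin gene sptb by 0.67 (adjusted p = 0.00101).

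Of 9 genes for heme clearance and the response to low oxygen, 1 rose in harbour, where 2.6% of all genes rose. It was egln3, an oxygen-sensing hydroxylase (1.00 ± 0.23, adjusted p = 0.0128). In airport, where 30% of all genes passed and 16.2% rose, 4 of the 9 rose. Among those, egln3 rose by 1.66 ± 0.22 (adjusted p = 4e-06), the haptoglobin gene hp by 2.62 ± 0.96 (adjusted p = 0.0386) and the heme oxygenase hmox1a by 0.97 ± 0.37 (adjusted p = 0.0463). Of 10 tested genes that neighbour the clusters in GRCz12tu, 2 rose in harbour and 1 fell, where 2.6% of all genes rose and 2.28% fell. Higher were nprl3, whose introns hold globin enhancers in vertebrates (0.50 ± 0.12, adjusted p = 0.0151), and aqp8a.1 (0.42 ± 0.12, adjusted p = 0.0339). Lower was aqp8a.2 (-0.62 ± 0.17, adjusted p = 0.0291). For road and for mock filter against vehicle in series 35, none of the 58 genes tested in the 5 lists of globins, heme, red cell and clearance genes passed. In series 37, 7 of the 58 rose and 4 fell for road filter 26, and 8 rose and 5 fell for harbour filter 38. Beside the 23% and 20% of all genes that passed for these filters, neither count stands out. The glycine carrier slc25a38a rose in both, by 2.86 ± 0.43 (adjusted p = 3.2e-05) and 2.94 ± 0.43 (adjusted p = 3.9e-05), and egln3 by 0.86 ± 0.21 in each (adjusted p = 0.00341 and 0.00415). For road filter 28 and harbour filter 36, 0 of the 58 passed.

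As a group, the 9 red cell markers summed to 503 to 569 CPM in harbour, overlapping with 420 to 523 CPM in vehicle of series 35, a sum in which rhag weighs most. Singly, slc4a1a, klf1, gata1a and cahz lay above vehicle in every harbour pool, while rhag, sptb, hemgn, epb41b and alas2 overlapped with vehicle. In airport they summed to 321 to 378 CPM, below every vehicle pool. Taken singly, rhag, sptb and hemgn were below vehicle in every airport pool, while slc4a1a, alas2, cahz, epb41b and klf1 overlapped with vehicle. The marker gata1a was not lower, at 1.25, 1.79 and 1.3 CPM in airport against 0.571, 0.917 and 1.27 in vehicle. Endothelial markers (4 genes) read 148 to 163 CPM in harbour, 160 to 183 in airport and 135 to 156 in vehicle. So in airport the sum of endothelial markers was above vehicle while the sum of red cell markers was below. In mock filter pools endothelial markers read 140 to 165 CPM, overlapping with airport. Neutrophil markers (3 genes) read 63.3 to 87.6 CPM in harbour, 63.4 to 212 in airport and 34.4 to 111 in vehicle, with overlap. Macrophage markers (3 genes) read 25.6 to 47.2 CPM in harbour, 52 to 56.7 in airport and 27.4 to 77.2 in vehicle. Thrombocyte markers (3 genes) read 3.17 to 3.37 CPM in harbour, above 2.54 to 3.08 in vehicle, and 2.17 to 3.51 in airport. Mock filter pools read 1.85 to 3.96 CPM in them, a range that covers the harbour pools. Lymphocyte markers (3 genes) read 10.47 to 19.1 CPM in harbour, 15.9 to 17 in vehicle and 7.43 to 10.1 in airport, below every vehicle pool. No marker of these lists was at 0 in any of these groups, and the part of other cell types in the globin values was not tested. Of the 16 genes in the lists of other blood and vessel cells, 1 rose and 0 fell in harbour. In airport, 2 of them rose and 2 fell. Over all genes 4.87% passed in harbour and 30% in airport, so neither count stands out. Uniquely mapped reads were 71.7 to 76.9% in harbour, 75.2 to 75.9% in vehicle and 76.7 to 77.1% in airport. Duplicates were 17.7 to 18.9% in harbour, below the 19.45 to 30.9% of vehicle and within the 17.35 to 31.1% of mock filter. The mean insert size was 253 to 267.5 bases in harbour, above the 222 to 250.5 bases of vehicle, against 256.5 to 293 in mock filter. The part of these measures in the globin counts was not tested.

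The genes whose pattern came closest to the summed globins were looked for among 17571 others, over 33 pools with series means removed. The closest was hbae1.2 (r = 0.961), followed by slc4a1a (0.91), alas2 (0.878) and cahz (0.863), all genes of red cells. The next were scp2b (0.837), tuba8l4 (0.833), nmt1b (0.829), lsm6 (0.821), sst2 (0.801) and snrpd1 (0.793), which belong to none of the red cell lists. Other red cell markers followed the globins less closely. Their r was 0.627 for klf1 (rank 283), 0.594 for hemgn (rank 441), 0.484 for epb41b (rank 1261), 0.447 for rhag (rank 1665) and 0.284 for sptb (rank 3756). The median r over all genes compared was -0.0167. Part of this order rests on the harbour pools of series 35. Over the other 30 pools the r of hbae1.2 was 0.922 (rank 1) and that of slc4a1a 0.8 (rank 3). The red cell genes alas2 and cahz dropped to 0.744 (rank 13) and 0.708 (rank 46). Of the named genes outside the red cell lists, scp2b had rank 21, lsm6 40, tuba8l4 110, nmt1b 176 and sst2 214. The gene snrpd1 dropped to 0.54 (rank 537).

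**Figure D5:**
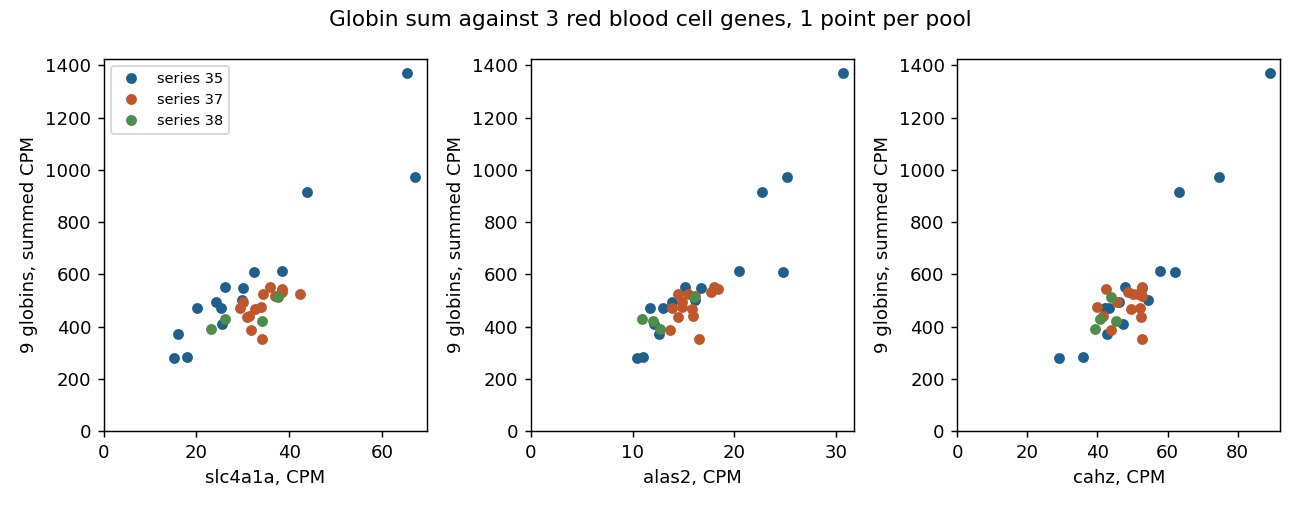
Summed CPM of the 9 globins (vertical axis) against the CPM of slc4a1a, alas2 and cahz (horizontal axes), 1 point per pool, coloured by library series. The genes shown are the red cell genes, globins aside, with the highest r to the sum. The 3 points at 915 to 1371 CPM are the harbour pools of series 35, and the 2 lowest, at 279 and 286 CPM, are airport filters 54 and 44.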

How the data were processed

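Counts are as the authors deposited them: whole numbers of reads per gene, not normalised. A second deposited table, per the file headers, lists the percent of reads mapped uniquely, unmapped or duplicated, together with signal-type values, the mean insert size in bases. CASAVA, BWA and the build GRCz11 stand in the submitters' processing notes. Neither the counting program nor its annotation is given in the sources used here, and the kit marks strand, per the labels' protocols.

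Genes were kept with filterByExpr (22653 of 25432), scaled by TMM and tested by quasi-likelihood (edgeR 4.0.16, R 4.3.3). All 33 libraries entered 1 fit with 12 means, 1 per site in series 35 and 1 per filter in series 37 and 38. Groups thus shared 1 estimate of spread. Harbour, road and airport pools of series 35 came from different filters, while each group of series 37 and 38 held 1 filter or vehicle. The p-values of series 35 therefore drew in part on the spread of repeat pools. The Benjamini-Hochberg adjustment ran over all 22653 genes, and calls needed an adjusted p under 0.05. CPM are TMM-scaled, and log2 CPM had a prior count of 2. Chain sums carry the SE from their log2 CPM and no p-value. DESeq2 1.42.0, other scalings and filters, other sets of libraries and each pool left out in turn were the alternatives. Intervals are 95%.

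The text names all 9 members, up to 3 genes per list and comparison with the smallest adjusted p among those that passed, and the 10 genes most alike the summed globins. The list gene gata1a and the interferon-induced gene mxc were named outside this rule, after their values were seen. The members, lists and comparisons were chosen with earlier results of these data known. No pool was left out. Among 31 pairs of pools within a group, the chi-square per degree of freedom of their counts lay between 4.67 and 59.93. None was thus a copy. This value was 14.41 to 59.93 in harbour, road and airport pairs of series 35. Vehicle and mock filter pairs of that series gave 5.14 to 40.31, and pairs of series 37 and 38 gave 4.67 to 11.67. Pools are separate sets of embryos, per the labels' protocols.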

Additional observations from a re-analysis of the deposited data

Results flagged for a closer look

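Among 60 sets of 4 or 6 pools tested (1 gene or sum in the pools of 1 filter or of vehicle, series joined), a pool far from its set was found in 14. Chance gives about 1 in 20 for a single set. The sets share pools and the sums are made of the single genes, so the 14 cannot be weighed against that rate. The pool of harbour filter 38 in series 35 stood above the other 3 pools of that filter in hbae1.1 (57.1 CPM against 19.8 to 26.1), hbae1.3 (155 against at most 48.4), hbae3 (288 against 101 to 120), hbbe1.1 (480 against 168 to 189) and hbbe2 (114 against 35.4 to 44.2). Its sums stood apart as well, at 501 CPM for the alpha genes, 870 for the beta genes and 1370 for all 9. The pool of harbour filter 36 in series 35 stood apart in hbbe2 (79 CPM against 36.6 to 43.6) and in the beta sum (617 against 271 to 325). In both filters the pool that stands apart is the only one of series 35, so pool and series cannot be told apart.

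Vehicle 3 was high in hbae5 (0.864 CPM against 0.241 to 0.412) and vehicle 2 in hbbe1.1 (194 against 98.5 to 134). In hbbe3, vehicle 2 (0.0458 CPM) and pool 2 of harbour filter 36 (0.0363 CPM) were the only pools of their sets with a read, and that was 1 read each. The harbour effect differed between series 35 and 37 by a test of the difference in hbae1.1 (log2 difference 0.9602) and hbbe2 (0.8543).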

How the results depend on the processing

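Member by member, 1824 values were recomputed under the alternatives. None that had passed changed direction, 59 no longer passed and 25 passed newly, and 97 values that had not passed changed sign. The number of members called out of 8 changed as follows. With the libraries of 1 series fitted alone, harbour against vehicle went from 5 to 0, harbour against mock filter from 5 to 1, airport against vehicle from 4 to 3, airport against mock filter from 4 to 2, road filter 26 from 0 to 4, road filter 28 from 0 to 1, harbour filter 38 from 0 to 2, and harbour filter 38 against 36 from 0 to 1. With 1 effect per site over all series, harbour against vehicle gave 2, and so did harbour filters 36 and 38 of series 37, which share that effect. Without vehicle 3, mock filter 2 and mock filter 3, harbour against mock filter gave 3 and airport against mock filter 2. DESeq2 called 1 member between the vehicle pools of series 37 and 35. The causes were not tested, and the share of all genes that passed was not determined for the fits of 1 series. Leaving out 1 pool at a time gave 4 to 6 called members for harbour against vehicle, 4 to 5 for harbour against mock filter, 2 to 5 for airport against vehicle, 1 to 5 for airport against mock filter, 0 to 2 for the difference of the harbour effect between series, 0 to 1 for road filter 26 and for vehicle of series 37 against 35, and 0 for the other comparisons. The road filter 26 call came without its pool 2. RLE scaling, no filter on low counts and totals without the globins changed none of these counts by over 1.5 times.

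Mock filter and vehicle, road filters 26 and 28, and harbour filters 36 and 38 share replicate numbers. For mock filter and vehicle, deviations of same-numbered pools correlated at 0.215, -0.177 and 0.268, and those of different-numbered pools at -0.369 to 0.252. For road filters 26 and 28 these were 0.00387, -0.00317 and -0.00902 against -0.0228 to 0.0232. In these 2 comparisons the numbers were not taken to pair the pools. For harbour filters 36 and 38, 2 pools per group leave a single value (0.134, with the sign turned for different numbers). It cannot show whether the numbers pair the pools, and no pairing was used there either. With the replicate block, 0, 1 (hbbe1.1 at 0.31) and 3 members (hbae1.3 at -0.54, hbbe1.2 at -0.47 and hbbe1.3 at -0.70) were called, against 0 in each without it. The share of all genes that passed in these blocked fits was not determined, so their counts cannot be set against a background. The harbour fit held 2 pools per group, which leaves little to estimate the spread from. Counts of hbae5 and hbbe3 were too low for differences below several-fold to be detected.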
